A study of Mus musculus with 6 samples.

Results

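The Toll-like receptors expressed by bone marrow monocytes (BMDM) and brainstem microglia (BSM) were compared in the mouse. The family members described here were the 10 genes named Tlr1, Tlr2, Tlr3, Tlr4, Tlr5, Tlr6, Tlr7, Tlr8, Tlr9 and Tlr13. They were chosen by symbol, with earlier results of these data known, and all 10 were found among the 35237 genes of the Cufflinks table. BMDM were sorted by FACS as CD11b+ CD45high CD115+ Ly6G- cells, and BSM as CD11b+ CD45low CD115low Ly6G- cells, both from untreated C57BL/6 mice of 6 weeks of age. Each group had 3 RNA-Seq libraries, each made from the cells of a pool of 10 mice, and the labels give male mice for replicate 1 of each group and female mice for replicates 2 and 3, whereas the study's text speaks of male mice. The question was which of these receptors distinguish bone marrow monocytes from the resident macrophages of the brain.

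Toll-like receptors are membrane proteins of innate immune cells that recognise conserved molecules of microbes. Members at the cell surface bind components of bacterial walls and flagella (Tlr1, Tlr2, Tlr4, Tlr5 and Tlr6), whereas members in endosomes bind nucleic acids (Tlr3, Tlr7, Tlr8, Tlr9 and Tlr13). Ligand binding recruits the adaptors Myd88 or Ticam1, which leads to NF-kB and interferon regulatory factors. The route from Myd88 passes through kinases of the Irak family and the ligase Traf6. In the brain microglia are the main cells that carry these receptors.

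Expression was given as FPKM, that is, fragments scaled by transcript length and by the number of mapped fragments. FPKM summed over all genes were between 163199 and 194184 in BMDM libraries and between 68288 and 75021 in BSM libraries, and the median log2 fold change of the 6364 genes tested was 0.81 toward BMDM. A log2 difference near 0 on the deposited scale was therefore below that of most genes, and differences are also given after quantile normalization, which brought that median to 0.02. The study lists the mapped reads of each library as similar between libraries, but the tables used here do not give the number of fragments behind each value. BSM replicate 1 stood apart, with 7.42% of the tested genes listed at 0 against between 0.801% and 1.81% in the other 5 libraries. The study's RNA quality sheet also lists by far the lowest RNA integrity and RNA concentration for this library, and whether these caused its zeros was not tested. Without BSM replicate 1, differences were -1.07 for Tlr1, -3.24 for Tlr3, -1.74 for Tlr7 and 3.10 for Tlr8 (log2, limma adjusted p at most 0.00328). The cell types matched their markers. FPKM of the monocyte marker Ccr2 were between 135.9 and 165.7 in BMDM and between 0.0129 and 0.408 in BSM, and those of Ly6c2 between 13.03 and 29.6 in BMDM and listed at 0 in all BSM libraries. The summed FPKM of the 4 microglia markers P2ry12, Tmem119, Cx3cr1 and Sparc was between 6.71 and 7.99 in BMDM and between 526 and 578 in BSM. Itgam, which encodes the sort marker CD11b, was listed at 0 in BSM replicate 2 against at least 100.5 in the other 5 libraries, so a listed 0 can be a failed estimate.

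Of the 10 receptors, 9 reached an FPKM of 3 in at least 1 library and were tested with limma. Tlr3, Tlr4 and Tlr6 reached it only in BSM libraries and Tlr8 only in BMDM libraries, so they entered through the group where they were high. Differential expression at an adjusted p-value under 0.05 was found for 4 of them, with Tlr8 higher in BMDM and Tlr1, Tlr3 and Tlr7 higher in BSM. Among all 6364 genes tested, 54.5% were differentially expressed, 45.3% toward BMDM and 9.22% toward BSM. The median log2 fold change of the 9 receptors was -0.33 against 0.81 for all genes tested. With no FPKM minimum, where Tlr5 is included, these medians were -0.27 and 0.03. In BMDM and BSM the libraries did not overlap for 8 of the 10 receptors, of which 3 were above in BMDM (Tlr2, Tlr8 and Tlr13) and 5 above in BSM (Tlr1, Tlr3, Tlr4, Tlr6 and Tlr7). Such a lack of overlap was found for 66.8% of the genes tested, 55.2% with BMDM above and 11.6% with BSM above. ALEXA-Seq values of the same libraries also did not overlap for 8 of the 10 receptors, against 66.1% of the genes tested there. In these bulk libraries, fewer cells with a transcript and less of it in each cell cannot be told apart.

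**Figure D1:**
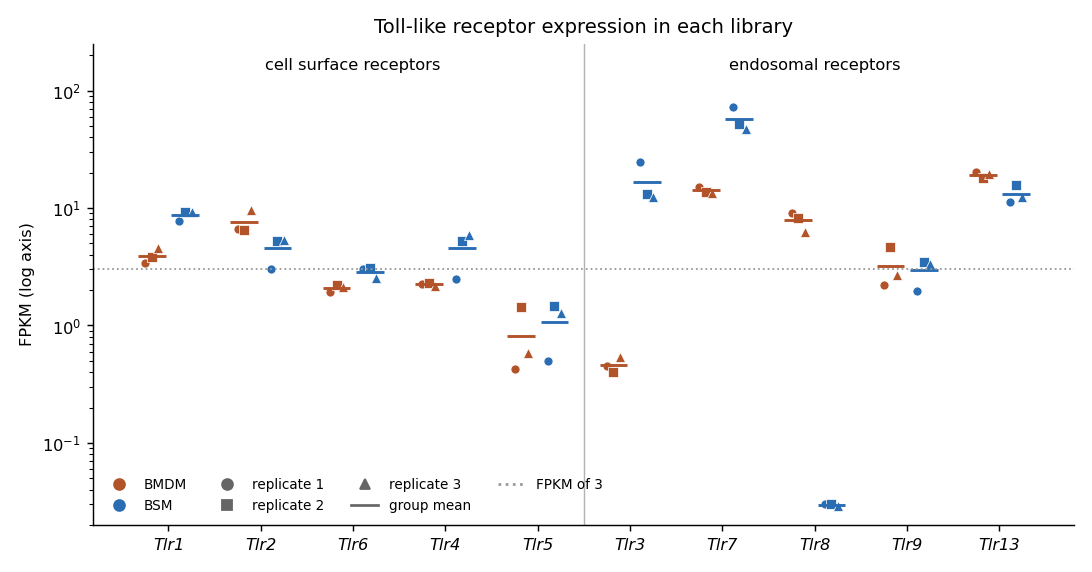
FPKM of the 10 receptors (log axis) in each of the 6 libraries, with BMDM in brown, BSM in blue, a symbol for each replicate number, a bar at the group mean and a dotted line at the FPKM minimum of 3. Tlr8 lies near 0.03 in all 3 BSM libraries and above 6 in all 3 BMDM libraries, and Tlr3 lies below 0.6 in BMDM and above 12 in BSM.

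Among the endosomal receptors, Tlr8, a sensor of single-stranded RNA and its breakdown products, showed the largest difference toward BMDM. Its FPKM were 9.10, 8.30 and 6.27 in BMDM replicates 1, 2 and 3 and 0.0299, 0.0300 and 0.0291 in the corresponding BSM libraries. Every BMDM library was far above every BSM library. The mean of 7.89 ± 1.46 (SD, n = 3) in BMDM was 266 times the mean of 0.0297 ± 0.000467 (SD, n = 3) in BSM. On the log2(FPKM + 1) scale, which understates the fold of genes with low values, the difference was 3.10 (SE 0.25, limma adjusted p = 5.39e-05), and after quantile normalization 2.41 (limma adjusted p = 0.000487). ALEXA-Seq, which the authors ran as a second pipeline on the same libraries, gave values of 71.9, 54.7 and 48.5 in BMDM and 0.251, 0.313 and 0.133 in BSM, a ratio of 251 between the means. The tables do not give the number of fragments that the low BSM values rest on.

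Tlr7, the neighbour of Tlr8 on the X chromosome and likewise a receptor for single-stranded RNA, differed in the opposite direction. In mm9 the gene model of Tlr8 lies at chrX:163680626-163702261 and that of Tlr7 at chrX:163742861-163768490, with 40599 basepairs between them. Tlr7 FPKM were 15.1, 13.8 and 13.5 in BMDM and 72.6, 52.2 and 47.3 in BSM, with no overlap between the groups. The BSM mean of 57.3 ± 13.4 (SD, n = 3) was 4.05 times the BMDM mean of 14.1 ± 0.855 (SD, n = 3). The log2 difference was -1.92 (SE 0.24, limma adjusted p = 0.000488), and -2.67 after quantile normalization (limma adjusted p = 9.45e-05). Within each library, Tlr7 FPKM were 1.66, 1.66 and 2.16 times those of Tlr8 in BMDM and 2425, 1741 and 1623 times in BSM. This ratio does not depend on how libraries are scaled, and its groups did not overlap (exact two-sided permutation test of the log2 ratio, p = 0.1, the smallest that 3 against 3 libraries allow). With Tlr7 above in BSM and Tlr8 above in BMDM, the lack of overlap and the p-value were fixed in advance. The test therefore adds nothing to the separations of the 2 genes.

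Tlr3, the receptor for double-stranded RNA that signals through Ticam1, showed the largest difference toward BSM. Its gene model lies at chr8:46481019-46495893 in mm9. FPKM were 0.448, 0.404 and 0.536 in BMDM and 24.5, 13.2 and 12.4 in BSM. All BSM libraries were more than 20 times above any BMDM library, and the male BSM library, replicate 1, was the highest. The mean in BSM of 16.7 ± 6.74 (SD, n = 3) was 36.1 times that in BMDM of 0.463 ± 0.0672 (SD, n = 3). The log2 difference was -3.54 (SE 0.30, limma adjusted p = 6.53e-05), and -4.15 after quantile normalization. ALEXA-Seq gave values of 5.92, 5.79 and 7.37 in BMDM and 378, 197 and 193 in BSM, a ratio of 40.2 between the means. In the GENCODE M21 annotation an antisense gene, Gm45542, shares 381 exonic bases (7.32%) with Tlr3 on the opposite strand, and whether the counting used the strand is not given in the sources used here.

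Tlr13, which recognises bacterial ribosomal RNA, was the receptor with the highest FPKM in BMDM. FPKM were 20.3, 18.1 and 19.4 in BMDM and 11.3, 15.9 and 12.3 in BSM. The groups did not overlap, but the log2 difference of 0.53 (SE 0.23, limma adjusted p = 0.079) did not pass the threshold and turned to -0.22 after quantile normalization (limma adjusted p = 0.483). Tlr13 passed in opposite directions under other settings, at -0.71 with the same sum of FPKM in each library (limma adjusted p = 0.036) and at 0.40 with library weights (limma adjusted p = 0.0416). Relative to Tlr13, both Tlr3 and Tlr7 stood higher in BSM. The ratio of Tlr3 to Tlr13 FPKM was 0.0221, 0.0223 and 0.0276 in BMDM and 2.17, 0.834 and 1.01 in BSM, and that of Tlr7 to Tlr13 was 0.745, 0.759 and 0.697 in BMDM and 6.44, 3.29 and 3.84 in BSM. Neither ratio overlapped between the groups (exact two-sided permutation p = 0.1 for each). Both outcomes were fixed by Tlr3 and Tlr7 being above in BSM and Tlr13 above in BMDM.

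Tlr9, the receptor for unmethylated CpG DNA, overlapped between the groups. Its FPKM were 2.21, 4.71 and 2.72 in BMDM and 1.97, 3.50 and 3.36 in BSM, and the highest and the lowest library thus came from different groups with the others mixed between them. The log2 difference was 0.08 (95% confidence interval -0.64 to 0.79, limma adjusted p = 0.851) and turned to -0.75 after quantile normalization (limma adjusted p = 0.0412). BMDM replicate 2, the highest of the 6 libraries for Tlr9, was also the highest for markers of granulocytes. The summed FPKM of the 5 granulocyte markers Ly6g, Elane, Mpo, Camp and Ltf was 43.2, 247 and 78.4 in BMDM replicates 1, 2 and 3 and at most 0.00913 in BSM. Elane and Mpo carried most of this sum, while Ly6g, against whose protein the cells were gated, was 0, 0.293 and 0 in BMDM. The same library was the highest for the 3 erythroid markers (6.27, 37.7 and 6.50 in BMDM) and the 3 T and NK cell markers (0.291, 6.19 and 0.731). Among BMDM it was also the highest for summed B cell, dendritic cell, endothelial, oligodendrocyte and microglia markers. It was not for monocyte, plasmacytoid dendritic cell, perivascular macrophage, astrocyte or neuron markers. Its FPKM summed over all genes was the highest (194184), and the study lists its share of mapped reads as the lowest. The part of these cells and properties in the Tlr9 values was not tested. Without BMDM replicate 2 the log2 difference of Tlr9 was -0.17, and without BSM replicate 1 it was -0.12.

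Plasmacytoid dendritic cells are known for Tlr7 and Tlr9, and their markers were therefore examined beside these receptors. Of the 5 listed markers, 4 had an FPKM (Siglech, Bst2, Tcf4 and Ccr9), and their sum was between 6.78 and 12.5 in BMDM and between 99.1 and 105 in BSM. Siglech, which microglia also express, made up most of the BSM sum with 84.7, 89.5 and 84.4, against at most 0.149 in BMDM. The other markers were low in BSM, with Bst2 at most 0.165 and Ccr9 at most 0.322, while Tcf4 was between 14.0 and 15.6 in BSM and between 5.67 and 11.8 in BMDM. The part of these genes' cells in the Tlr7 and Tlr9 values was not tested.

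Among the surface receptors, Tlr1, which pairs with Tlr2 to bind triacylated lipopeptides, was higher in BSM. FPKM were 3.37, 3.81 and 4.54 in BMDM and 7.72, 9.25 and 9.24 in BSM. Every BSM library was above every BMDM library, and the mean of 8.74 ± 0.884 (SD, n = 3) in BSM was 2.23 times that of 3.91 ± 0.591 (SD, n = 3) in BMDM. The log2 difference was -0.99 (SE 0.22, limma adjusted p = 0.00759), and -1.77 after quantile normalization (limma adjusted p = 0.000427). The ALEXA-Seq difference was -1.33 (limma adjusted p = 0.00391).

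Tlr2, the shared partner of Tlr1 and Tlr6, had FPKM of 6.67, 6.49 and 9.71 in BMDM and 3.02, 5.25 and 5.35 in BSM. The groups did not overlap, but the log2 difference of 0.65 (SE 0.28, limma adjusted p = 0.0856) did not pass the threshold and was -0.12 after quantile normalization (limma adjusted p = 0.738). Within libraries, where scaling has no effect, Tlr1 FPKM were 0.506, 0.588 and 0.468 times those of Tlr2 in BMDM and 2.55, 1.76 and 1.73 times in BSM. Tlr2 was thus above Tlr1 in all 3 BMDM libraries and below it in all 3 BSM libraries (exact two-sided permutation test of the log2 ratio, p = 0.1). The p-value was fixed by Tlr1 being above in BSM and Tlr2 above in BMDM.

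Tlr6, which pairs with Tlr2 to bind diacylated lipopeptides, lies next to Tlr1, at chr5:65344345-65351274 against chr5:65316073-65323938 in mm9, 20406 basepairs away. FPKM of Tlr6 were 1.92, 2.21 and 2.12 in BMDM and 3.01, 3.09 and 2.52 in BSM, without overlap and close to the FPKM minimum of 3. Its log2 difference was -0.33 (SE 0.23, limma adjusted p = 0.251), and it passed the threshold after quantile normalization (-1.13, limma adjusted p = 0.00381). The ratio of Tlr1 to Tlr6 was 1.76, 1.73 and 2.14 in BMDM and 2.56, 2.99 and 3.67 in BSM, and that of Tlr6 to Tlr2 was 0.288, 0.340 and 0.219 in BMDM and 0.997, 0.589 and 0.471 in BSM. Both ratios were higher in every BSM library (exact two-sided permutation p = 0.1 for each). For Tlr6 to Tlr2 this was fixed by Tlr6 being above in BSM and Tlr2 above in BMDM. It was not fixed for Tlr1 to Tlr6, which were both above in BSM.

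Tlr4, the receptor for lipopolysaccharide, had FPKM of 2.24, 2.30 and 2.18 in BMDM and 2.49, 5.26 and 5.86 in BSM. BSM replicate 1, the library of lowest RNA integrity, was just above the BMDM libraries and the other 2 BSM libraries were more than 2 times as high. The log2 difference was -0.71 (SE 0.31, limma adjusted p = 0.0799) and did not pass the threshold, whereas without BSM replicate 1 it was -1.02 (limma adjusted p = 0.00333). It also passed after quantile normalization (-1.59, limma adjusted p = 0.0027) and with ALEXA-Seq (-1.31, limma adjusted p = 0.0297). The gene model of Tlr4 in the deposited table spans 102701 basepairs, against 19031 in RefSeq, and the effect of the longer model on its FPKM was not tested.

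Tlr5, the receptor for flagellin, was low in both groups and was not tested, as no library reached an FPKM of 3. FPKM were 0.422, 1.42 and 0.577 in BMDM and 0.493, 1.48 and 1.27 in BSM. The groups overlapped, and with a minimum of 1 the log2 difference was -0.21 (limma adjusted p = 0.591).

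**Figure D2:**
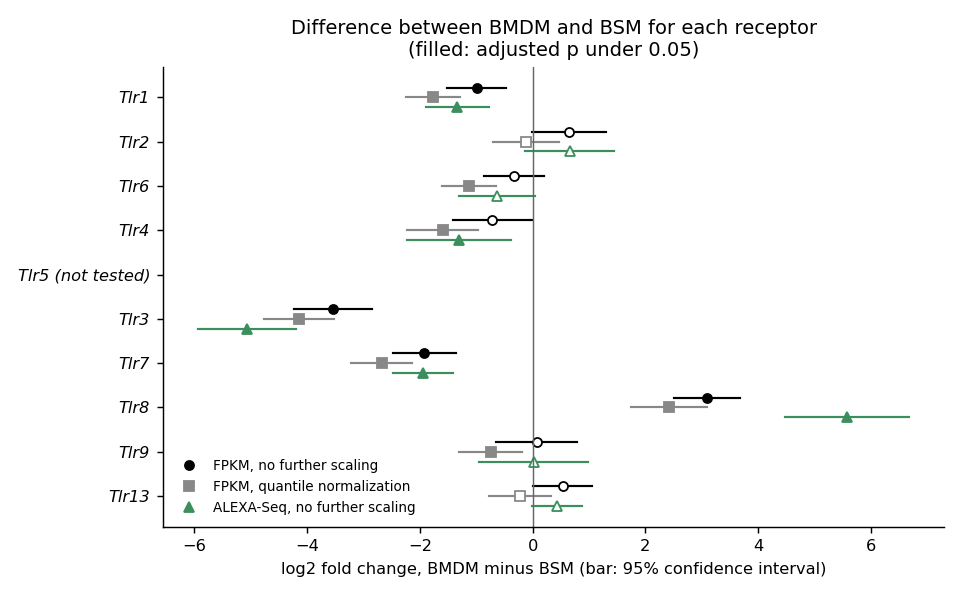
Log2 fold change of BMDM minus BSM (x axis) for each receptor by limma on the deposited FPKM, on FPKM after quantile normalization and on ALEXA-Seq values, with bars for the 95% confidence interval and filled symbols for an adjusted p-value under 0.05. Tlr1, Tlr3 and Tlr7 are filled to the left of 0 and Tlr8 to the right in all 3, while Tlr2 and Tlr13 are open in all 3 and Tlr9 is filled with quantile normalization alone.

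The tests above share the same libraries, and ALEXA-Seq is a second count of the same reads rather than a second experiment. With ALEXA-Seq, 5 of the 9 receptors tested passed the threshold, Tlr8 higher in BMDM and Tlr1, Tlr3, Tlr4 and Tlr7 higher in BSM, against 47.9% of all genes tested (37.1% toward BMDM and 10.9% toward BSM). After quantile normalization of FPKM, 7 of the 9 passed, 1 higher in BMDM and 6 higher in BSM, against 40.9% of all genes (21.7% and 19.3%). The count of receptors higher in BSM therefore rose from 3 to 6 with this scaling, as Tlr4, Tlr6 and Tlr9 were added. With libraries scaled to the same sum of FPKM, 8 of the 9 passed, 1 toward BMDM and 7 toward BSM, against 40.1% of all genes (15.2% and 24.9%). After quantile normalization of the ALEXA-Seq values 6 passed, 1 toward BMDM and 5 toward BSM, against 43.8% of all genes (22.6% and 21.2%).

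The order of the receptors by mean FPKM differed between the cell types. In BMDM it was Tlr13, Tlr7, Tlr8, Tlr2, Tlr1, Tlr9, Tlr4, Tlr6, Tlr5 and Tlr3, where the ranges of Tlr8 and Tlr2, of Tlr1 and Tlr9, of Tlr9 and Tlr4, of Tlr4 and Tlr6, and of Tlr5 and Tlr3 overlapped. In BSM the order was Tlr7, Tlr3, Tlr13, Tlr1, Tlr2, Tlr4, Tlr9, Tlr6, Tlr5 and Tlr8, where Tlr3 overlapped with Tlr13 and each of Tlr2, Tlr4 and Tlr9 with the next. Tlr3 was thus last of 10 in BMDM and the second in BSM, and Tlr8 the third in BMDM and last in BSM. By mean ALEXA-Seq value Tlr8 was at rank 4 in BMDM, after Tlr13, Tlr2 and Tlr7. Tlr3 held its ranks in both groups there, and Tlr8 was again last in BSM. The FPKM orders compare levels for each kilobase of transcript and carry any error of the gene models.

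As shares of the summed FPKM of the 10 receptors, which do not depend on the scaling of libraries, Tlr7 made up 22.9 ± 1.34% in BMDM and 50.8 ± 5.49% in BSM (SD, n = 3 each). Tlr13 made up 31.3 ± 1.70% in BMDM and 11.9 ± 2.86% in BSM, and Tlr2 12.4 ± 2.94% and 4.19 ± 1.59%. Tlr3 made up 0.751 ± 0.109% in BMDM and 14.6 ± 4.02% in BSM, and Tlr8 12.8 ± 2.35% and 0.0267 ± 0.0029%. For each of these 5 receptors the shares of the groups did not overlap. The same held for Tlr6 (3.11%, 3.59% and 3.44% in BMDM and 2.37%, 2.83% and 2.53% in BSM). It also held for Tlr9 (3.58%, 7.65% and 4.41% in BMDM and 1.55%, 3.21% and 3.37% in BSM). Both shares were higher in BMDM, whereas both genes passed toward BSM after quantile normalization of FPKM. A share also falls where another receptor takes more of the sum. By ALEXA-Seq the Tlr6 shares overlapped. The share of the 5 endosomal receptors together was 76.3%, 73.6% and 68.9% in BMDM and 86.8%, 77.7% and 75.7% in BSM. The ALEXA-Seq values, whose correction for transcript length is not given in the sources used here, put Tlr7 at 14.9 ± 2.05% in BMDM and 33.2 ± 3.20% in BSM (SD, n = 3 each). The endosomal shares by FPKM overlapped between the groups, and the difference of -7.10 percentage points did not pass the test (exact two-sided permutation, p = 0.2). The summed FPKM of the 10 receptors was 61.8, 61.5 and 61.6 in BMDM and 127, 109 and 99.7 in BSM, and Tlr7 alone accounted for 72.6, 52.2 and 47.3 of the BSM sums.

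**Figure D3:**
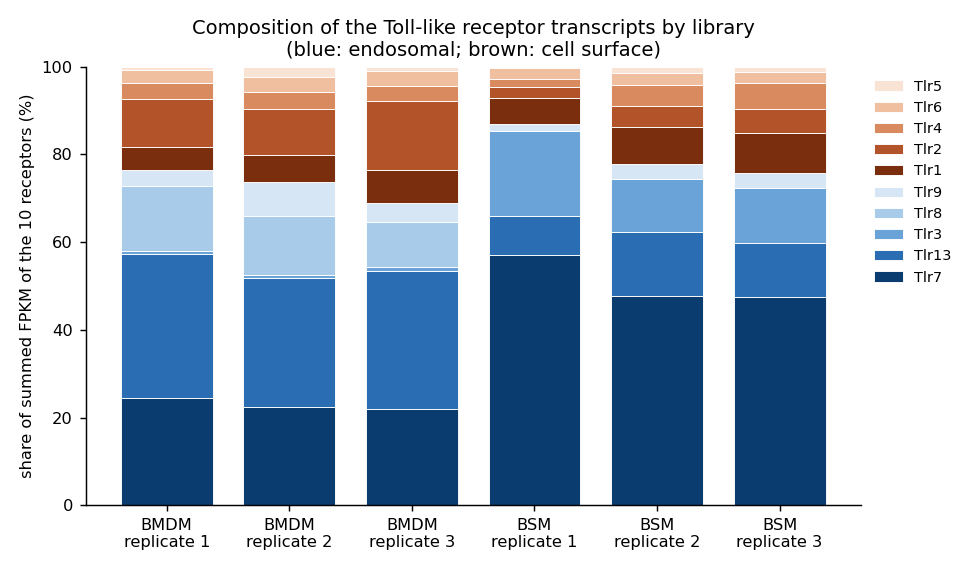
Share in percent of the summed FPKM of the 10 receptors held by each receptor, as a stacked bar for each library, with endosomal receptors in blue and surface receptors in brown. Tlr7 takes between 47.4% and 57.1% of these FPKM in BSM, Tlr13 is the largest share in every BMDM library, and the total of the blue parts lies between 68.9% and 86.8% in all 6 libraries.

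Among the members on the X chromosome (Tlr7, Tlr8 and Tlr13), the male library of each group was the highest for Tlr7 in both groups, for Tlr8 and Tlr13 in BMDM and for neither in BSM. With 1 male library in each group, sex and the other properties of replicate 1 cannot be told apart, and no test of sex was made. The male BSM library was also the highest of its group for the autosomal Tlr3. Without the male libraries, an analysis chosen after the values were seen, the 4 receptors above remained differentially expressed in the same direction and Tlr4 was added, higher in BSM (log2 difference -1.02, limma adjusted p = 0.00692).

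Promoter windows are shown for Tlr8 and Tlr1, which differed in opposite directions. The windows shown hold at most 5 exonic bases of GENCODE M21, and a second Tlr1 window, at another RefSeq start, holds 211 exonic bases and no GAGGAA and is not shown. Each is the 250 bases before the start in RefSeq (GRCm38.p6, a later build than that of the expression table), on the minus strand, written from 5′ to 3′ with capitals for the matched motif letters. Tlr8 lies at chrX:167264330-167264579 and Tlr1 at chr5:64933559-64933808.
Tlr8: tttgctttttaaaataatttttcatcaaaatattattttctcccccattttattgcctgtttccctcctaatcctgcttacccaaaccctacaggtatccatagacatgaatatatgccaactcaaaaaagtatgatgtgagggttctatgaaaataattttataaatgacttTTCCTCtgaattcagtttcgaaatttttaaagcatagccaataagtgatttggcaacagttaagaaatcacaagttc
Tlr1: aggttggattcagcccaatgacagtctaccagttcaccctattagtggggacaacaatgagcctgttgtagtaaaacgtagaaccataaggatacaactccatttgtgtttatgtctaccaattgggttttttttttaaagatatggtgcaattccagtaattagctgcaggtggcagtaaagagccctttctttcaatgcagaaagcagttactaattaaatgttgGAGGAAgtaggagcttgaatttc
The capitals mark GAGGAA, the core letters bound by PU.1, a transcription factor of monocytes and microglia, found on the gene strand of Tlr1 from position -23 and on the opposite strand of Tlr8 from position -77, counted from the start. On either strand, this motif was present in 23.3% of all 32851 promoter windows of the same length. Neither window holds TGANTCA, the letters bound by AP-1, which were present in 6.75% of all windows. In Tlr3, whose window contains 178 exonic bases and is not shown, neither motif matched. Of the other members with an entry, Tlr9 held both motifs and Tlr13 held GAGGAA, and a match of letters is a description only.

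The genes of the Toll pathway were examined with a list of 36 co-receptors, chaperones, adaptors, kinases, transcription factors and inhibitors, and other receptors of the family. Of these, 35 were in the FPKM table and 21 were tested, of which 7 passed the threshold toward BMDM, 2 passed it toward BSM and 12 did not pass it. The shares among all genes were 45.3% and 9.22%. The median log2 fold change of the 21 genes was 0.69, near that of 0.81 for all genes tested. After quantile normalization 4 passed toward BMDM and 6 toward BSM, where the shares among all genes were 21.7% and 19.3%.

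Of the co-receptors and ligand transfer proteins, 1 of 5 tested was higher in each group, against 45.3% of all genes toward BMDM and 9.22% toward BSM. Cd14, which passes lipopolysaccharide to Tlr4, had FPKM of 0.352, 0.424 and 1.15 in BMDM and 6.43, 4.63 and 4.35 in BSM (log2 difference -1.92, SE 0.29, limma adjusted p = 0.00125). Lbp, the lipopolysaccharide-binding protein that delivers to Cd14, had 2.05, 4.80 and 2.31 in BMDM and was listed at 0 in BSM replicates 1 and 3 and at 0.0178 in replicate 2 (1.95, SE 0.34, limma adjusted p = 0.00246). Cd14 and Tlr4 were thus above in BSM and Lbp above in BMDM, while Ly96, the partner of Tlr4 in lipopolysaccharide binding, had 23.5, 23.0 and 20.8 in BMDM and 1.76, 18.4 and 15.7 in BSM. The low Ly96 value came from the library of lowest RNA integrity, BSM replicate 1, and the difference did not pass the threshold with it (1.28, limma adjusted p = 0.143) or without it (0.38, limma adjusted p = 0.0805).

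Of the chaperones that fold and carry the receptors, Unc93b1, which delivers the nucleic acid receptors to endosomes, had FPKM of 4.80, 7.15 and 6.03 in BMDM and 8.63, 5.79 and 5.28 in BSM, with the groups overlapping (log2 difference -0.10, SE 0.27, limma adjusted p = 0.765). After quantile normalization its difference was -0.81 (limma adjusted p = 0.0261). Hsp90b1, a chaperone of the family in the endoplasmic reticulum, had between 102.5 and 154 in BMDM and between 76.2 and 125.5 in BSM and did not pass the threshold either.

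Of the adaptors, only Ticam2, which links Tlr4 to Ticam1, reached the FPKM minimum, with 6.34, 8.30 and 6.13 in BMDM and 1.17, 2.95 and 2.86 in BSM (log2 difference 1.29, SE 0.30, limma adjusted p = 0.00867), a call that was lost after quantile normalization (limma adjusted p = 0.091). Myd88, the adaptor of all members but Tlr3, was under the minimum, with 2.07, 2.82 and 1.97 in BMDM and 0.355, 0.474 and 0.666 in BSM, and passed with ALEXA-Seq (2.16, limma adjusted p = 0.00748). Ticam1, the adaptor of Tlr3, was at or below 0.664 in all 6 libraries and overlapped between the groups.

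Of the kinases and ligases, 2 of 6 tested were higher in BMDM and none in BSM, against 45.3% and 9.22% of all genes tested. Irak4, the first kinase that Myd88 recruits, had FPKM of 12.04, 10.26 and 10.56 in BMDM and 0.567, 3.32 and 3.10 in BSM (log2 difference 1.98, SE 0.40, limma adjusted p = 0.00463), and Traf6 was the other (0.69, limma adjusted p = 0.0335). Of the transcription factors, Nfkb1 (2.01, SE 0.28, limma adjusted p = 0.000773) and Irf5 (0.94, limma adjusted p = 0.0226) were higher in BMDM among 3 tested, against the same 45.3% of all genes. Nfkb1, a subunit of NF-kB, had 23.6, 29.5 and 33.0 in BMDM and 4.36, 7.60 and 7.53 in BSM. After quantile normalization the calls of both Traf6, which turned to -0.041 (limma adjusted p = 0.901), and Irf5, at 0.23 (limma adjusted p = 0.506), were lost. Neither passed with ALEXA-Seq without further scaling (Traf6 0.88, limma adjusted p = 0.0575, and Irf5 0.87, limma adjusted p = 0.0834), where the Irf5 groups overlapped.

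Of the inhibitors, Irak3, a kinase-dead member of its family that restrains signalling, had 6.00, 5.84 and 6.75 in BMDM and 0.441, 1.85 and 0.297 in BSM (log2 difference 2.04, SE 0.34, limma adjusted p = 0.00184). Pik3ap1, an adaptor for PI3-kinase that dampens Toll signalling, went the other way, with 1.57, 2.62 and 2.14 in BMDM and 3.56, 5.95 and 5.90 in BSM (-0.97, SE 0.28, limma adjusted p = 0.0194). The other 2 inhibitors tested, Tollip and Tnfaip3, did not pass the threshold.

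**Figure D4:**
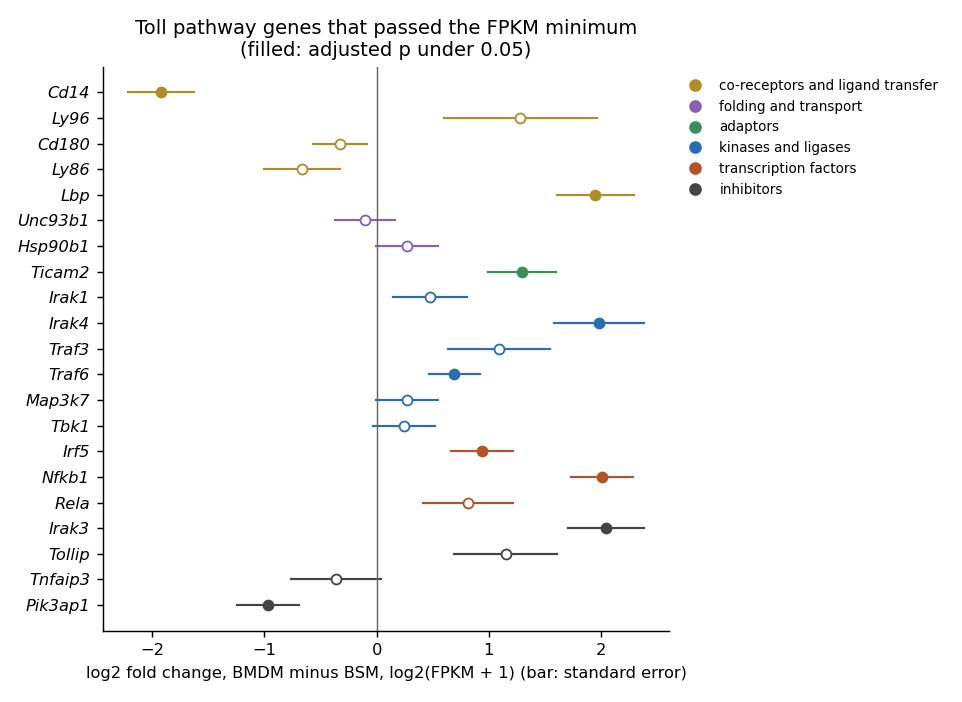
Log2 fold change of BMDM minus BSM on log2(FPKM + 1) (x axis) for the 21 tested genes of the Toll pathway list, coloured by role, with bars for the standard error and filled symbols for an adjusted p-value under 0.05. Filled symbols to the right of 0 are 7 genes from Traf6 at 0.69 to Irak3 at 2.04, and to the left Cd14 at -1.92 and Pik3ap1 at -0.97.

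The mouse family has further members, Tlr11 and Tlr12, which sense protozoan profilin and were both under the FPKM minimum. Tlr12 had FPKM of 0.0142, 0 and 0.108 in BMDM and 0.362, 1.81 and 1.08 in BSM, with every BSM library above, and it passed with ALEXA-Seq (log2 difference -3.88, limma adjusted p = 0.00778). Tlr11 was at most 0.349 in any library.

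The genes whose pattern over the 6 libraries was most like that of the receptors with the largest differences were sought among 6363 other tested genes by Pearson's r on log2(FPKM + 1). For Tlr8 they were Serpinb10 (r = 0.99909), Wfdc17 (r = 0.99868) and Dgkg (r = 0.99833), and 136 genes had an r above 0.99. For Tlr3 they were Gtf2h2 (r = 0.99923), the microglia marker Tmem119 (r = 0.99913) and Ttc39b (r = 0.99911), and 65 genes had an r above 0.99. The 6 libraries fall into 2 groups, so any gene with a like difference between the groups has a high r. Among the BSM libraries, Tmem119 had FPKM of 23.7, 13.4 and 11.9 in replicates 1, 2 and 3, with replicate 1 highest as for Tlr3.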

How the data were processed

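The receptors and the pathway list were chosen with earlier results of these data known. RNA was extracted with TRIzol, amplified with the Ovation RNA-Seq method and sequenced as 100 basepair paired-end reads. The submitters' processing notes name CASAVA 1.7.0, TopHat 1.3.1, Bowtie 0.12.7, Cufflinks 1.0.3 and the build mm9. The authors deposited gene expression as FPKM and as an ALEXA-Seq signal on a linear scale whose unit is not given in the sources used here. Neither set of values was given as counts, so no count test was used.

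FPKM were compared with limma 3.58.1 in R 4.3.3 (eBayes with trend) on log2(FPKM + 1). Genes that reached an FPKM of 3 in any library were tested (6364 of 35237), with Benjamini-Hochberg adjustment and a threshold of 0.05. A gene could thus enter through either group alone. Log2 differences are BMDM minus BSM. For ALEXA-Seq, the same model was fitted to the top 6364 genes by their highest signal in any library. P-values measure the spread between 3 pools of mice a group. Shares and ratios were tested by exact two-sided permutation (scipy 1.17.1). On simulated data, 200 of 6364 genes were changed. Of these, 0 were called at a log2 fold change of 1, 70.5% at 2 and 94.5% at 4. Unchanged genes called numbered 0, 12 and 11 in that order. In the measured data 54.5% of the 6364 genes were called, and the adjustment is less strict where more genes differ. The share called at these fold changes with that many differing genes was not tested. Genes named were all members, pathway genes past the threshold in both tables without overlap or on which a result turned, and for the member with the largest difference in each direction the 3 genes of the highest correlation. Alternatives were upper quartile, quantile and same-sum scaling, a pseudocount of 0.1, a lower FPKM minimum (1) or no minimum, no trend, library weights, the replicate number as a block, ALEXA-Seq, and leaving out libraries. Exon overlaps and promoter exons came from GENCODE M21. Some listed marker genes are not reported here. Male and female libraries of a group were compared together.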

Additional observations from a re-analysis of the deposited data

How the results depend on the processing

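Tlr8, Tlr1, Tlr3 and Tlr7 kept their direction and their call in every alternative run. Against 4 receptors differentially expressed, 7 were found with quantile normalization, 8 with the same sum of FPKM and 7 with library weights, 5 with ALEXA-Seq and 4 to 5 when 1 library was left out. With library weights 4703 of all 6364 genes tested passed against 3470, of which 3822 were higher in BMDM against 2883. Receptors higher in BMDM numbered 3 with library weights and 1 otherwise, including each library left out (1 to 1), and those higher in BSM 5 with upper quartile scaling, 6 with quantile normalization, 7 with the same sum, 5 with ALEXA-Seq quantile normalization and 3 to 4 with 1 library left out. Over all tested genes the median difference (log2), 0.81 on the deposited scale, was 0.14 with upper quartile scaling, 0.02 with quantile normalization and -0.23 with the same sum. It also depended on the genes admitted, at 0.58 with an FPKM minimum of 1 and 0.03 with no minimum, both on the deposited scale. Genes higher in BMDM were 1379 with upper quartile scaling, 1378 with quantile normalization, 968 with the same sum and 1439 with ALEXA-Seq quantile normalization against 2883, and genes higher in BSM 1051, 1227, 1585 and 1349 in that order and 881 with library weights against 587. With 1 library left out, all differentially expressed genes ranged from 2498 to 3932 against 3470, those higher in BMDM from 2037 to 3194 and those higher in BSM from 461 to 738. Of the pathway list, 15 genes passed with library weights against 9, beside the 4703 of all 6364 genes that passed with these weights. Those higher in BMDM were 3 with upper quartile scaling, 4 with quantile normalization and 3 with the same sum against 7, and those higher in BSM were 5, 6 and 8 in that order, 5 with library weights, 7 with ALEXA-Seq quantile normalization and 4 with female libraries alone (chosen after seeing the data) against 2. With 1 library left out the pathway counts ranged from 6 to 11, from 5 to 8 for BMDM and from 1 to 3 for BSM. The difference in endosomal share ranged from -9.29 to -3.72 percentage points with 1 library left out, was smallest without BSM replicate 1, and was -16.6 without Tlr13 (exact two-sided permutation p = 0.1). The direction of 3 receptors that had not passed turned. Tlr2 was -0.078 with upper quartile scaling, -0.12 with quantile normalization, -0.48 with the same sum and -0.072 with ALEXA-Seq quantile normalization. Tlr13 was -0.27, -0.22, -0.71 and -0.30 in that order. Tlr9 was -0.57, -0.75, -0.93 and -0.76, and -0.23 with library weights, -0.17 without BMDM replicate 2 and -0.12 without BSM replicate 1, in a range up to 0.25 with 1 library left out. The cause was not tested.

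The values showed no pairing by replicate number. The correlation of deviations between same-numbered libraries was -0.02, -0.01 and 0.13, and not every library correlated best with its own number. This cannot tell whether same-numbered libraries came from the same mice, which the sources used here do not give. With the replicate number as a block, 4 receptors and 3471 genes were differentially expressed. The tables do not give the fragments behind single values, which limits the low values of Tlr8 in BSM, of Tlr3 in BMDM and of Tlr5.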
